A study of Mus musculus with 24 samples.

Results

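The C/EBP (CCAAT/enhancer-binding protein) transcription factors were followed in mouse embryonic cortical neurons given different forms of the interleukin-1 receptor accessory protein. The group was defined as Cebpa, Cebpb, Cebpd, Cebpg and Cebpz, taken as every probe set whose platform annotation carries exactly 1 of these symbols. Of the 5 genes, 4 had a probe set, 8 probe sets in all, among 18193 genes named on the array. No probe set was matched to Cebpz. The 1 probe set of the separately named gene Cebpzos was not used. The neurons lacked the endogenous accessory protein (genotype Il1rap-/-) in all 8 groups. They expressed CD25, AcP, AcPb, or AcP and AcPb together, and were either left as controls or given IL-1b at 10 ng/ml, with 4 hours stated for both, on 3 arrays per group and 24 in all. AcP is the widely expressed accessory protein, the signalling partner of the IL-1 receptor, AcPb is its variant found in the nervous system, and CD25 is an interleukin-2 receptor chain that stands in as an unrelated receptor. The age of the embryos, and how the receptors were introduced, are not given in the sources used here. Whether replicate arrays stand for separate cultures is not stated, so p-values here reflect array-to-array spread that may be technical.

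C/EBP proteins are basic leucine zipper factors that bind DNA as dimers. Cebpb and Cebpd are the members best known for induction by inflammatory signals, downstream of IL-1, NF-kB and IL-6 family cytokines acting through STAT3, and both contribute to acute phase and defence gene transcription, in astrocytes as well as in peripheral tissues. Cebpa is best known from differentiation of fat, liver and myeloid cells. Cebpg lacks a strong transactivation domain of its own and acts as a dimer partner.

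Upstream sequence is shown for Cebpb, whose transcript rose with IL-1b, beside Cebpg, whose transcript did not pass the test in any arm's response. Each stretch holds the 250 bases before the RefSeq start site, 5′ to 3′ on the gene's strand. They lie at chr2:167688665-167688914 on the plus strand for Cebpb and at chr7:35056567-35056816 on the minus strand for Cebpg, in GRCm38.p6. Capitals mark TGACG, the half-site bound by CREB and ATF proteins, read on either strand.
Cebpb: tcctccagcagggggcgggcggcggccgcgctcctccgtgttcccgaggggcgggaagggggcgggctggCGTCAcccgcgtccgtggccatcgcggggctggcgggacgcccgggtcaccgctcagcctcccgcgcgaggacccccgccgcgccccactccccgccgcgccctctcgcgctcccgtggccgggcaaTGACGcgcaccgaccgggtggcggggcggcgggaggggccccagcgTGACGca
Cebpg: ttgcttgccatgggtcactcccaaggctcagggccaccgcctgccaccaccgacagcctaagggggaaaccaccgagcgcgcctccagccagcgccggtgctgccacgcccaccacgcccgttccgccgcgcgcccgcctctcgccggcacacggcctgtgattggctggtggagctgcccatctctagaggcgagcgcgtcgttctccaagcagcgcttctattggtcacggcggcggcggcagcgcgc
The Cebpb stretch held 3 such half-sites, ending 176, 49 and 3 bases before the start, and the Cebpg stretch held none, where 17.8% of 32851 promoter stretches of this length held at least 1. The GC box GGGCGG occurred 5 times in the Cebpb stretch, with the first pair overlapping, and in 32.7% of all stretches. The C/EBP core TTGCNNAA (9.6% of all stretches), the STAT motif TTCNNNGAA (7.0%) and the NF-kB consensus (3.9%), each searched on both strands, were not found in the Cebpa, Cebpb or Cebpg stretch. These are matches of letters only.

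The values are the deposited linear intensities, with array medians between 55.02 and 66.41 and 16.4% to 18.2% of values below 0. Replicates correlated at 0.978 to 0.988. Log2 ratios of 3′ over 5′ control probe sets lay between -0.08 and 0.21 for Gapdh and between 0.26 and 0.44 for b-actin over all arrays. Neuronal markers were bright on every array, with the tubulin gene Tubb3 between 3899 and 5215. Astrocyte transcripts were present too, with Gfap between 340.3 and 2549. Of 12 microglial and macrophage markers 5 passed the filter on dim probe sets. Aif1, Cx3cr1, C1qa and C1qc had means below 0 over the 24 arrays, whereas Csf1r averaged 469.8 (228.7 to 872.9), C1qb 71.0, Cd68 48.0 and Trem2 47.6. Neither Il1rap nor Il2ra probe sets check the labels, because an Il1rap deletion may leave part of the transcript and expressed cDNAs need not contain the probed part. In these bulk cultures, fewer cells of a type and less RNA per cell cannot be told apart. Arrays carry 1 of 3 codes at the end of the labels' array names, and only the AcP+AcPb arm holds more than 1. Its controls 1 and 2 share a code found in no other group, and control 3 shares its code with the 3 IL-1b arrays of that arm. All arrays of the other arms carry the remaining code. Any difference in level between AcP+AcPb and another arm therefore cannot be told apart from the code.

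Cebpd rose with IL-1b in AcP neurons, from 68.2 ± 14.4 to 809 ± 256 (SD, n = 3), and in AcP+AcPb neurons, from 157 ± 67.3 to 653 ± 154. It was already at 823 ± 53.4 in unstimulated CD25 neurons, where IL-1b gave 767 ± 272, and it stayed low in AcPb neurons, at 76.9 ± 4.30 and 77.0 ± 10.1. Cebpb rose in the same arms, over a narrower range. Cebpa and Cebpg had no called response to IL-1b in any arm.

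On the brighter Cebpd probe set (1423233_at), the 3 AcP controls read 57.5, 62.6 and 84.6, and the 3 AcP arrays with IL-1b read 671, 1104 and 651. The groups were far apart, with no reading between 84.6 and 651. The change was 3.26 ± 0.26 on the log2(intensity + 16) scale (SE, limma, adjusted p = 5.0e-07), a scale that understates changes of dim probe sets. The AcP+AcPb controls read 106, 132 and 233, and the stimulated arrays 535, 598 and 827. Control 3 was the high one, and the groups still did not overlap. The change was 2.00 ± 0.26 (limma adjusted p = 0.00047). Blocking on the array code, or staying within the 1 code that holds both conditions, it was 1.40 and was not called (limma adjusted p = 0.18 in both), and with only these 6 arrays in the fit it was 2.00 and was not called (limma adjusted p = 0.27). The AcPb controls read 75.0, 81.8 and 73.9 against 88.5, 73.2 and 69.5 with IL-1b. These overlapped completely, at -0.00 with a 95% interval from -0.55 to 0.54. The CD25 controls read 762, 854 and 855 against 553, 674 and 1074. Here the stimulated arrays lay on both sides of the controls, at -0.15 with an interval from -0.70 to 0.39.

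**Figure D1:**
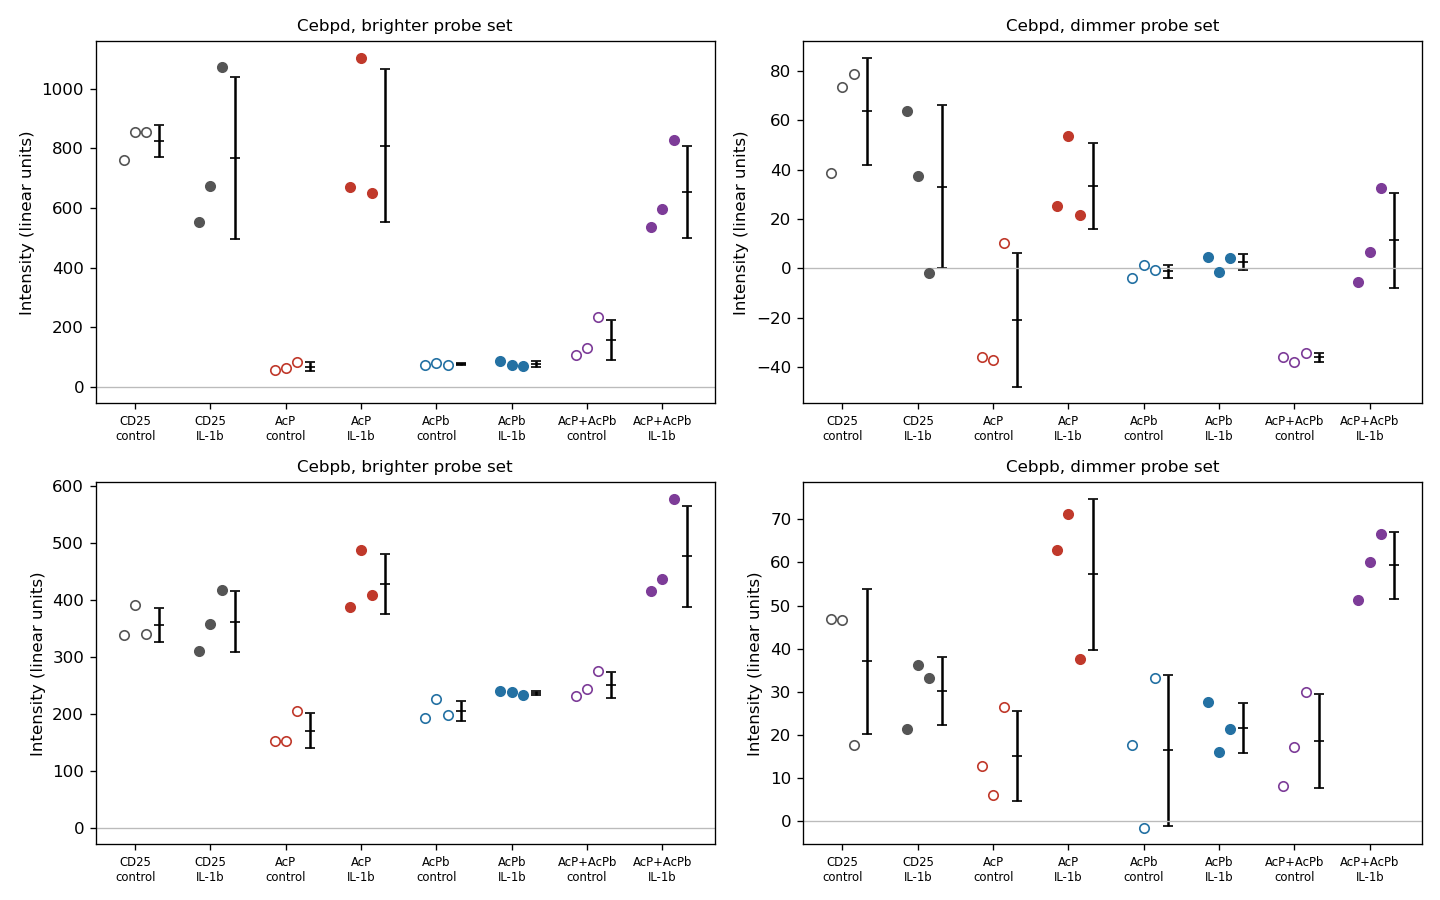
Intensity of the brighter and dimmer probe set of Cebpd and of Cebpb in linear units on the y axis, by group on the x axis; open points are control arrays, filled points are arrays with IL-1b, and bars are the mean ± SD of 3 arrays. Brighter Cebpd sits between 553 and 1074 in all CD25 arrays, between 57.5 and 84.6 in AcP controls and between 651 and 1104 in AcP arrays with IL-1b.

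Cebpb, on its brighter probe set (1418901_at), read 152, 153 and 206 in AcP controls and 387, 488 and 409 with IL-1b, from a mean of 170 ± 30.8 to 428 ± 53.3. No control came near a stimulated array. The change was 1.26 ± 0.13 (limma adjusted p = 2.5e-05), and 1.26 but not called with only these 6 arrays in the fit (limma adjusted p = 0.083). In AcP+AcPb neurons Cebpb read 232, 243 and 275 in controls and 415, 436 and 577 with IL-1b. Again the groups did not overlap, and the change was 0.88 ± 0.13 (limma adjusted p = 0.0036). It was 0.74 and not called with the array code as a block (limma adjusted p = 0.29) or within 1 code (0.32), and was not called with only these arrays in the fit (0.30). In AcPb neurons the controls read 193, 226 and 198 and the stimulated arrays 240.1, 238 and 233. The 3 stimulated arrays were all above the controls, by a difference that did not pass the test (0.19 ± 0.13, 95% interval -0.09 to 0.48, limma adjusted p = 0.67). In CD25 neurons Cebpb read 338, 390.2 and 340 in controls and 310.2, 357 and 418 with IL-1b, which overlapped (0.02, interval -0.27 to 0.30).

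The second probe set of each gene was dim. Cebpb 1427844_a_at read 12.8, 6.11 and 26.5 in AcP controls and 62.9, 71.3 and 37.7 with IL-1b, and 8.28, 17.3 and 30.0 against 51.3, 60.04 and 66.5 in AcP+AcPb neurons. Stimulated arrays lay above controls in both arms, at 1.26 ± 0.35 and 1.17 ± 0.35, and neither was called (limma adjusted p = 0.20 and 0.24). Cebpd 1456605_at read -36.1, -37.1 and 10.2 in AcP controls and 25.5, 53.4 and 21.6 with IL-1b. It lay in the same direction as the brighter probe set and was not called (1.34 ± 0.45, limma adjusted p = 0.35). It passed the filter on dim probe sets with only 7 arrays above the 40th percentile of their array.

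Across the 8 probe sets, limma called 2 in the AcP response and 2 in the AcP+AcPb response, all higher. Of all 30468 probe sets tested, 0.404% and 0.256% were called in these responses. The median change of the 8 was 0.71 and 0.79, against -0.00 and 0.01 over all probe sets. In the AcP response this median falls in a gap. The Cebpa and Cebpg probe sets lie below it and the Cebpb and Cebpd probe sets above it. Cebpb and Cebpd enter with both of their probe sets, so the medians do not stand for a shift of the whole family. No C/EBP probe set was called in the CD25 response, where limma called 0% of all probe sets (1712 had an unadjusted p under 0.05, among them 1 of the 8), or in the AcPb response, where it called 0.00985%.

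**Figure D2:**
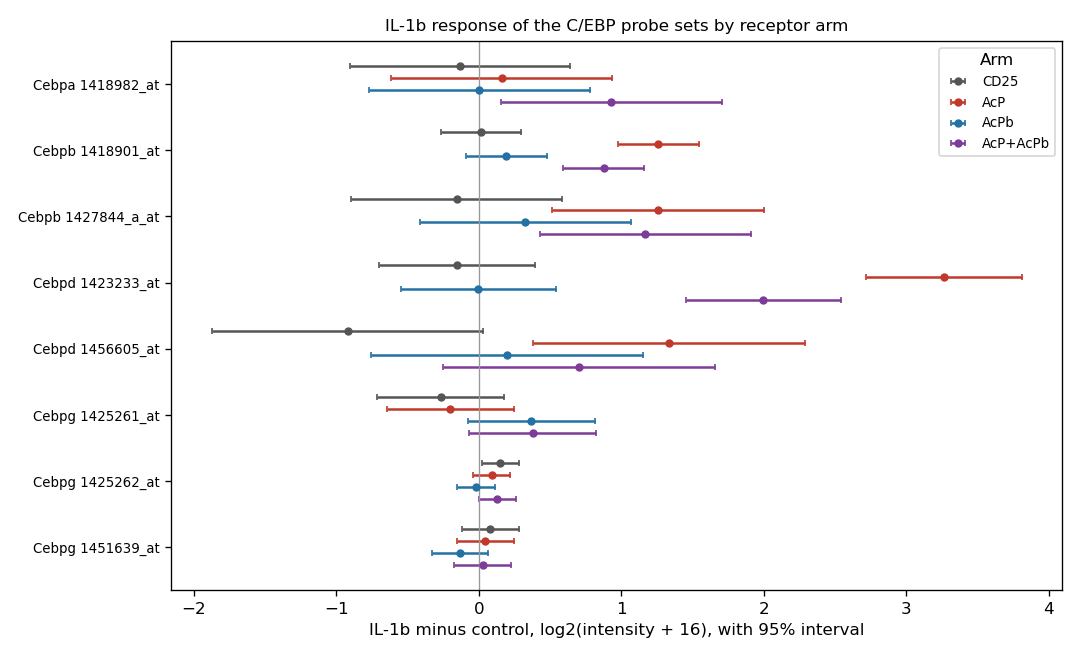
Change with IL-1b on the log2(intensity + 16) scale (x axis) for each of the 8 C/EBP probe sets (y axis), with the 95% interval of the fit over 24 arrays, 1 colour per receptor arm. Cebpd 1423233_at lies at 3.26 with AcP and 2.00 with AcP+AcPb. Cebpg 1425262_at and 1451639_at lie close to 0, and the dim Cebpg 1425261_at lies further out, on both sides of 0.

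Differences between responses were tested directly. The Cebpd response with AcP exceeded that with CD25 by 3.42 ± 0.37 (limma adjusted p = 6.0e-05) and that with AcPb by 3.26 (-3.26 ± 0.37 as AcPb minus AcP, limma adjusted p = 0.00010). The AcP+AcPb response exceeded that with CD25 by 2.15 ± 0.37 (limma adjusted p = 0.015) and that with AcPb by 2.00 ± 0.37 (limma adjusted p = 0.042). Blocking on the array code ended both of these last calls (1.56 and 1.40). Both Cebpd differences from CD25 contain the Cebpd level of CD25 controls. That level was known from the same data when the gene was picked, so their p-values are a description and not independent support. Between the arms that responded, the difference AcP+AcPb minus AcP was -1.26 ± 0.37, with a 95% interval from -2.04 to -0.49 and an unadjusted p of 0.0029 by limma, and it was not called after adjustment (0.72). For Cebpb the AcP response exceeded that with CD25 by 1.24 ± 0.19 (limma adjusted p = 0.0033), and AcPb minus AcP was -1.07 ± 0.19 (limma adjusted p = 0.021). For its AcP+AcPb response no difference from the others was called, at 0.86 from CD25, 0.68 from AcPb and -0.38 from AcP (limma adjusted p = 0.13, 0.60 and 0.98). The Cebpd difference AcP+AcPb minus AcPb lost its call without any 1 AcPb array, AcP+AcPb control 1 or 2, or AcP+AcPb IL-1b array 2 or 3 (1.78 to 2.09), and AcP+AcPb minus CD25 without CD25 IL-1b array 1 or 2, AcP+AcPb control 2 or AcP+AcPb IL-1b array 3 (1.95 to 2.09). The Cebpb difference AcPb minus AcP lost its call without AcP control 1 or 2, AcP IL-1b array 2, AcPb control 2 or any 1 AcPb IL-1b array (-1.08 to -0.97). C/EBP probe sets called were 2 of 8 for AcP minus CD25 (0.19% of all probe sets were called there), 1 for AcP+AcPb minus CD25 (0.141%), 2 for AcPb minus AcP (0.148%), 1 for AcP+AcPb minus AcPb (0.0919%), and 0 for AcPb minus CD25 and AcP+AcPb minus AcP (0.00328% each).

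High resting Cebpd set the CD25 neurons apart from all other controls. This level was known from the same data when the gene was picked, so the Cebpd p-values here are a description and not independent support. Relative to CD25 controls, the brighter Cebpd probe set was lower by 3.33 on the log2 scale in AcP controls (-3.33 ± 0.26, limma adjusted p = 3.4e-07). The differences were -3.17 ± 0.26 in AcPb controls (1.1e-06) and -2.35 ± 0.26 in AcP+AcPb controls (1.4e-05). The dimmer Cebpd probe set read 38.7, 73.4 and 78.6 in CD25 controls, and no other control array exceeded the 10.2 of AcP control 3. Its differences were called as well (limma adjusted p = 0.0069, 0.0064 and 0.0027). Their size depends on the constant added before the log, since most of the lower controls were near or below 0. Adding 4 or 64 in place of 16 gave -3.41 or -0.91 for AcP, -3.89 or -0.97 for AcPb and -4.02 or -0.98 for AcP+AcPb. Cebpb was lower than in CD25 controls by -1.01 in AcP, -0.75 in AcPb and -0.48 in AcP+AcPb controls (limma adjusted p = 6.6e-05, 0.0024 and 0.022). The last call was lost without CD25 control 2 (-0.42), AcP+AcPb control 1 (-0.43) or AcP+AcPb control 2 (-0.47). AcP+AcPb and CD25 controls share no array code, so a block on the code cannot separate code from arm. It sets AcP+AcPb control 3 alone against CD25 controls, at -1.75 for Cebpd, -2.27 for its dimmer probe set and -0.35 for Cebpb. Of the 8 probe sets 3 were called lower than in CD25 controls in AcP, in AcPb and in AcP+AcPb controls. Each count of 3 holds both Cebpd probe sets. Of all probe sets, 10.3%, 4.59% and 14.3% were called in these comparisons in either direction. CD25 neurons thus differed from the other arms in many genes besides these. The arm and whatever else distinguishes its cultures cannot be told apart.

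Among the other unstimulated arms no C/EBP probe set was called. AcP+AcPb controls read higher than AcP controls on Cebpd (0.98 ± 0.26, limma adjusted p = 0.15) and Cebpb (0.53 ± 0.13, limma adjusted p = 0.14), without overlap, and lay above AcPb controls too on Cebpd (0.83, limma adjusted p = 0.10). AcP and AcPb controls overlapped on both. With array weights, the Cebpd difference of AcP+AcPb from AcPb controls was called (0.88, limma adjusted p = 0.049). Without AcP control 3, the Cebpb difference of AcP+AcPb from AcP controls was called (0.66, limma adjusted p = 0.033). All probe sets were called at 0.181% for AcP+AcPb minus AcP, 2.67% for AcP+AcPb minus AcPb and 0.42% for AcPb minus AcP.

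After IL-1b, Cebpd reached a like range in 3 arms. AcP minus CD25 was 0.09 (95% interval -0.46 to 0.63), AcP+AcPb minus CD25 was -0.20 (interval -0.74 to 0.35) and AcP+AcPb minus AcP was -0.28 (interval -0.83 to 0.26), and all of these groups overlapped. These intervals still allow differences in either direction. Stimulated AcPb neurons were lower than stimulated CD25 neurons by -3.02 on Cebpd and -0.57 on Cebpb (limma adjusted p = 3.7e-06 and 0.032), and lower than stimulated AcP neurons by -3.11 and -0.80 (1.2e-06 and 0.0021). Stimulated AcP+AcPb neurons exceeded them by 2.83 and 0.95 (4.9e-06 and 0.00074). C/EBP probe sets called were 0 of 8 for AcP minus CD25 (8.1% of all probe sets), 2 for AcPb minus CD25 (2.15%), 1 for AcP+AcPb minus CD25 (10.7%), 2 for AcPb minus AcP (5.76%), 0 for AcP+AcPb minus AcP (0.0328%) and 2 for AcP+AcPb minus AcPb (2.85%). The Cebpb difference of stimulated AcPb from CD25 neurons lost its call without CD25 IL-1b array 2 or 3, without any 1 of the AcPb IL-1b arrays, and with only these groups in the fit (-0.57, limma adjusted p = 0.16).

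Ranked by mean intensity, Cebpd ran from CD25 control (823) through AcP with IL-1b (809), CD25 with IL-1b (767) and AcP+AcPb with IL-1b (653), each overlapping the next. AcP+AcPb control (157) stood alone below these, and AcPb with IL-1b, AcPb control and AcP control (77.0, 76.9 and 68.2) overlapped at the bottom. Cebpb was highest in AcP+AcPb with IL-1b (476 ± 88.3), followed by AcP with IL-1b (428), CD25 with IL-1b (362) and CD25 control (356), each overlapping the next. After a gap came AcP+AcPb control (250.2) and AcPb with IL-1b (237), and after a further gap AcPb control (206) and AcP control (170.1). By mean alone, CD25 control was thus at the top for Cebpd and below both stimulated, responding arms for Cebpb. Neither of these stimulated groups was called higher than CD25 control on Cebpb, and AcP with IL-1b overlapped CD25 control.

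Over the 24 arrays the brighter probe sets of Cebpd and Cebpb moved together, with Pearson's r of 0.92 and a Spearman rho of 0.87. The points share arms and arrays. Most fall into a low and a high cluster, with the AcP+AcPb controls between them on Cebpd. The correlation therefore describes the group pattern and is not tested. The pair of Cebpd probe sets correlated at 0.72 and the pair of Cebpb probe sets at 0.79. Cebpg 1425262_at correlated with Cebpd at 0.45 and Cebpa with Cebpd at 0.20.

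**Figure D3:**
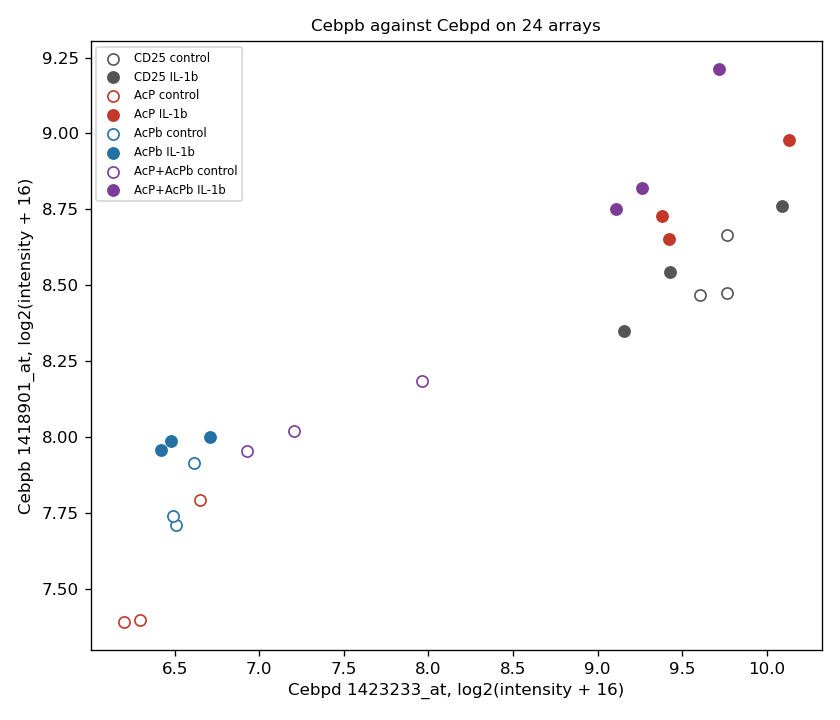
Cebpb 1418901_at (y axis) against Cebpd 1423233_at (x axis), both as log2(intensity + 16), on 24 arrays; open points are controls and filled points IL-1b, 1 colour per arm. Control arrays of AcP and all arrays of AcPb lie at the lower left, and all CD25 arrays lie with the stimulated AcP and AcP+AcPb arrays at the upper right. The AcP+AcPb controls lie between these on the x axis.

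Cebpg was measured at a steady level. Its brightest probe set (1425262_at) read 371, 353 and 361 in CD25 controls and 395, 421 and 394 with IL-1b. The stimulated arrays were all higher, by 0.15 ± 0.06, a difference that did not pass the test (limma adjusted p = 0.88). In AcP neurons it read 379, 334 and 344 against 386, 391 and 351, in AcPb neurons 346, 378 and 337 against 351, 358 and 337, and in AcP+AcPb neurons 340, 304 and 308 against 344, 356 and 345. The whole range over 24 arrays, 304 to 421, was narrow beside that of Cebpd. The 1 difference called in the responses, or between arms at the same stimulus, was between stimulated AcP+AcPb and CD25 neurons (-0.20 ± 0.06, limma adjusted p = 0.046), and it was lost when any 1 of these 6 arrays was left out, when only these groups were fitted (0.15) and with array medians centred (0.082). The AcP+AcPb controls stood below CD25 controls by a like amount, -0.18, that was not called (limma adjusted p = 0.060). It was called in 5 of 19 alternatives: without the dim filter (0.041), with the filter at the 60th percentile (0.038), with 1 probe set per gene (0.041), with array weights (0.040) and without AcP+AcPb control 1 (0.036). The other probe sets ranged from 175 to 238 (1451639_at) and from 16.3 to 51.5 (1425261_at), with no call in these comparisons.

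Cebpa was dim. Its only probe set (1418982_at) lay between 3.18 and 57.7 on all arrays, with 8 arrays above the 40th percentile of their array. In AcP+AcPb neurons the controls read 4.53, 3.18 and 56.2 and the stimulated arrays 48.4, 57.7 and 25.5. Control 3 stood with the stimulated arrays, whose code it shares, and the change of 0.93 ± 0.37 was not called (limma adjusted p = 0.40). Without AcP+AcPb control 3, the change was 1.55 and was called (limma adjusted p = 0.0068), as were the lower AcP+AcPb controls against CD25 (-0.99, 0.018) and AcP controls (-1.33, 0.048). Controls 1 and 2, which then remain, share the array code found in no other group, so code and stimulus cannot be told apart there. In the other arms Cebpa overlapped between control and IL-1b.

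**Figure D4:**
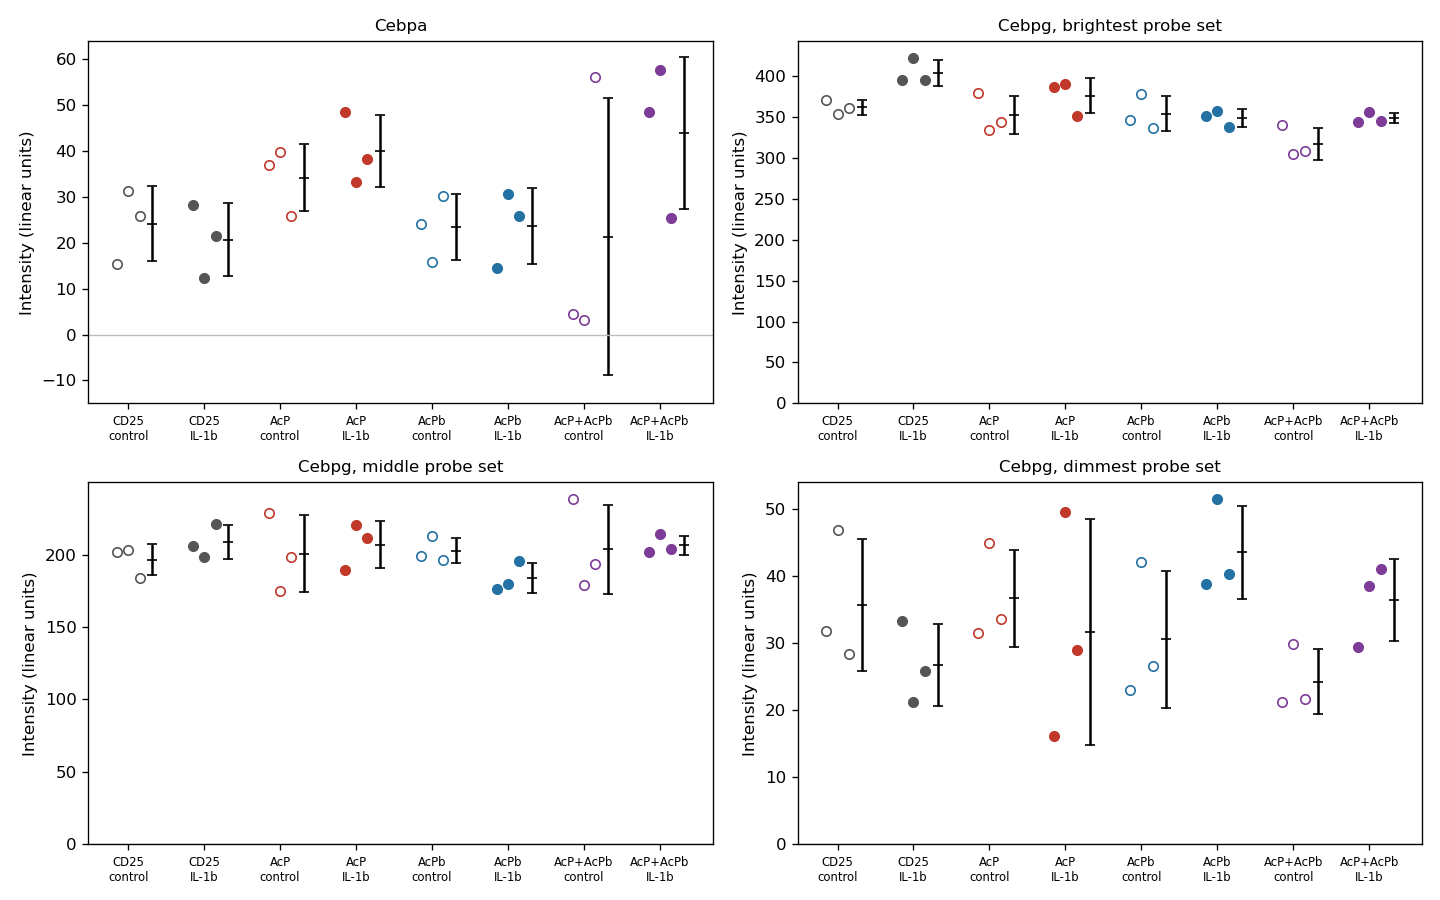
Intensity of the Cebpa probe set and the 3 Cebpg probe sets in linear units on the y axis, by group on the x axis; open points are controls, filled points IL-1b, and bars the mean ± SD of 3 arrays. Cebpg 1425262_at stays between 304 and 421, and AcP+AcPb controls of Cebpa split into 4.53 and 3.18 against 56.2.

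The genes most like Cebpd over the 24 arrays were Cp (r = 0.963), which encodes ceruloplasmin, Cdkn2b (0.962), a cell cycle inhibitor, Fos (0.962), an immediate early factor, Vcam1 (0.961), an adhesion molecule, Gbp7 (0.959), an interferon-inducible GTPase, and Icam1 (0.953), an adhesion molecule. Like Cebpd, they stood in CD25 controls near the level of stimulated AcP neurons. Cp and Cdkn2b were dim. In CD25 and AcP controls Cp averaged 60.7 ± 8.08 and 4.18 ± 2.08, and Cdkn2b 81.4 ± 31.5 and -12.6 ± 22.6. The r of these dim genes rests partly on values near or below 0. Icam1 averaged 206 ± 10.3 in CD25 controls, 12.5 ± 20.9 in AcP controls and 274 ± 56.5 in AcP neurons with IL-1b. Fos averaged 773 ± 102, 277 ± 55.5 and 740.0 ± 140 in the same groups, and Vcam1 1131 ± 31.8, 709.9 ± 59.3 and 1068 ± 41.0. For Cebpb the leading genes were Gbp7 (0.957), Irgm1 (0.944), another interferon-inducible GTPase, Icam1 (0.940), Cebpd (0.921), Ptx3 (0.921), a secreted pentraxin, and Vcam1 (0.917). Ptx3 rose past its CD25 level, from 77.3 ± 14.2 in AcP controls to 990 ± 305 with IL-1b against 320.3 ± 47.2 in CD25 controls. The lists depend on the measure. By Spearman's rho the first 6 genes for Cebpb were Cxcl1, Nfkbia, Cxcl10, Ptx3, Adamts1 and Gbp2, and the first 6 for Cebpd kept Vcam1, Fos and Cp. The genes whose levels are given were chosen for their likeness, so these levels are a description.

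Genes around the C/EBP factors were counted by list, 1 probe set per gene. The AcP controls enter both the AcP response and the comparison with CD25 controls, so these share arrays. Of 13 tested genes of IL-6 and STAT3 signalling, a known input to Cebpd, 5 were lower in AcP than in CD25 controls and none higher, where 10.3% of all probe sets were called in either direction. Socs3, the feedback inhibitor induced by STAT3, averaged 582 ± 124 in CD25 controls and 53.6 ± 14.9 in AcP controls (-3.10 ± 0.26, limma adjusted p = 6.1e-07). Osmr, an oncostatin M receptor chain, differed by -1.93 (511 against 123), Stat3 by -1.11 (1505 against 689.8) and Il6st, the shared receptor chain gp130, by -0.57. With IL-1b, 2 of the 13 rose in AcP neurons, Socs3 by 1.38 ± 0.26 to 164 and Osmr by 0.96 ± 0.17 to 254 (limma adjusted p = 0.020 and 0.014), and in AcP+AcPb neurons none was called. Stimulated AcP neurons had 809 against 823 in CD25 controls for Cebpd, and 164 against 582 for Socs3. In AcPb and in AcP+AcPb controls 6 of the 13 were lower than in CD25 controls, where 4.59% and 14.3% of all probe sets were called.

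Of 14 tested acute phase and defence genes with known C/EBP sites, 7 rose in AcP neurons and 7 in AcP+AcPb neurons, and none fell. In AcP neurons the chemokine Cxcl1 rose by 4.35 ± 0.24, the siderophore binder Lcn2 by 3.48 ± 0.32 and the chemokine Ccl2 by 3.41 ± 0.21. The metalloreductase gene Steap4 went from -101.7 to 221 and was called, but its control level was below 0, so the size of its log2 change depends on the added constant and is not given. The list has 23 genes on the array, and those that did not pass the filter on dim probe sets were not tested. A gene such as Steap4 passes through the groups in which it is high, so the count only describes the genes tested. Of all probe sets 0.404% and 0.256% were called in these responses. In AcP against CD25 controls 6 of the 14 were lower and none higher, with Serpina3n at -2.26, Ptx3 at -1.85, Lcn2 at -1.85 and Cp at -1.62. Serpina3n, an acute phase protease inhibitor, did not pass the test in the AcP response (0.84, limma adjusted p = 0.082). Of 15 NF-kB pathway genes 4 rose in AcP neurons, with Nfkbiz, the IkB-zeta gene, by 2.98 ± 0.18, Nfkbie by 1.21, Nfkbia by 0.97 and Relb by 0.78, and 4 rose in AcP+AcPb neurons. Nfkbiz was lower in AcP than in CD25 controls by -0.63. The part of IL-6, STAT3 or NF-kB signalling in the Cebpd differences was not tested.

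Among 11 other leucine zipper genes, partners or relatives of C/EBP, Atf3 and Fos rose in AcP neurons (limma adjusted p = 0.00036 and 0.00015), and none fell. Fos changed by 1.37 ± 0.17, and Atf3 went from -12.9, below 0, to 62.7, with no size given for its log2 change. In AcP against CD25 controls Fos (-1.44) and Jun (-0.71) were lower and Hlf (0.50) was higher. None of 11 genes that regulate C/EBP proteins, such as the Trib pseudokinases, was called in the AcP or AcP+AcPb response or in AcP against CD25 controls. Of all probe sets 0.404%, 0.256% and 10.3% were called in these comparisons, so the absence of calls says little about these genes. In the CD25 and AcPb responses no gene of any of these lists was called, where 0% and 0.00985% of all probe sets were called.

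Markers of other cells also differed between controls. Gfap, the intermediate filament of astrocytes, averaged 1935 ± 580 in CD25 controls, 482 ± 178 in AcP controls, 568 ± 165 in AcPb controls and 1360 ± 378 in AcP+AcPb controls. The marker counts stand beside 10.3% of all probe sets called in AcP against CD25 controls. Of 11 astrocyte markers 3 were lower and 4 higher in AcP than in CD25 controls. The mean log2 level of the 11 was 10.48 in AcP and 10.52 in CD25 controls, so Gfap does not stand for the list. Of 9 progenitor and dividing cell markers 4 were lower and 1 higher, with Nes at 400.3 against 847, and of 9 fibroblast and mural markers 3 were lower. Of 16 neuronal markers 1 was higher, a share below that of all probe sets. Of 5 microglial markers tested none was called. The part of these cells in the C/EBP differences between controls was not tested. In the AcP and AcP+AcPb responses no marker of these lists was called.

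**Figure D5:**
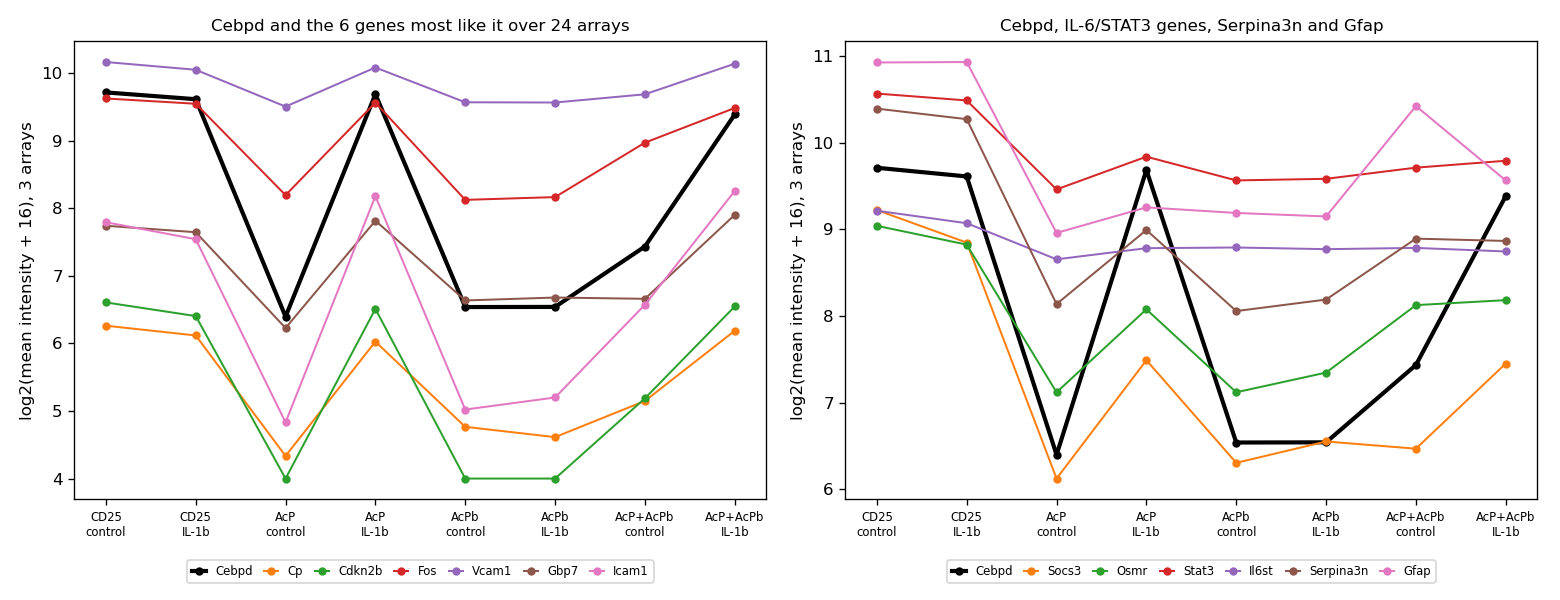
Group means of 3 arrays, with means below 0 set to 0, as log2(mean intensity + 16) on the y axis, by group on the x axis, for Cebpd with the 6 genes most like it (left) and for Cebpd with Socs3, Osmr, Stat3, Il6st, Serpina3n and Gfap (right). Each gene's height depends on its probe set, and only the shape across groups can be compared: Cebpd, Fos and Icam1 return to their CD25 level in AcP neurons with IL-1b, whereas Socs3 reaches 164 beside 582.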

How the data were processed

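Total RNA from 24 samples was measured on Affymetrix mouse arrays, 3 per group in 8 groups. The deposited table holds linear intensity values per probe set, already summarised and scaled, since array medians are alike; no source used here gives the software. Groups were taken from the titles.

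From these intensities, values below 0 were set to 0, 16 was added and log2 was taken. The deposited intensity values were not normalized further. Of 45077 probe sets, 40 controls were left out, and 30468 with at least 3 arrays above the 40th percentile of their array were tested. Platform annotation gave 1 symbol to 34945 probe sets, several to 932 and none to 9160, and 34741 matched RefSeq, with 0 symbols changed. Limma 3.58.1 in R 4.3.3 (lmFit, eBayes) was fitted to 8 group means, with 16 residual degrees of freedom. P-values were adjusted by Benjamini-Hochberg over all probe sets within a comparison and called under 0.05. The fit was tested on simulated data. An exact permutation test of 3 against 3 arrays cannot go below 0.1, so none is given.

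The members and lists were chosen with earlier results of these data known. Named were every member probe set, the 6 genes with the highest r to Cebpd and Cebpb, and up to 4 called genes per list with the largest change in the AcP response or in AcP against CD25 controls. Other named genes, the cell markers and those given as uncalled, were picked after their values were seen. Lists used the brightest probe set of each gene. Upstream sequences came from RefSeq tables (GRCm38.p6), which held 3 of the 5 genes. Replicate numbers were not used to pair samples in the main fit. Deviations of equal numbers correlated at -0.12 to 0.19 and those of unequal numbers at -0.20 to 0.12. With 3 arrays per group this cannot settle whether samples were paired. Alternatives changed the added constant, the log, normalization, filter, arrays fitted, weights, a block and single arrays.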

Additional observations from a re-analysis of the deposited data

Results flagged for a closer look

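Responses to IL-1b differed between arms, by limma's test of the difference itself, in 6 cases. For Cebpd 1423233_at the differences were 3.42 for AcP minus CD25, 2.15 for AcP+AcPb minus CD25, -3.26 for AcPb minus AcP and 2.00 for AcP+AcPb minus AcPb. For Cebpb 1418901_at they were 1.24 for AcP minus CD25 and -1.07 for AcPb minus AcP. The CD25 responses start from controls at 823 for Cebpd and 356 for Cebpb, against 68.2 and 170.1 in AcP controls. The high Cebpd of CD25 controls was known when the gene was picked, so the Cebpd differences from CD25 are a description. Groups of 3 arrays were not screened for single outlying arrays.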

How the results depend on the processing

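No result changed sign while called. The Cebpd response in AcP neurons (3.02 to 3.40 when single arrays were left out) and the lower Cebpd 1423233_at of all other controls against CD25 kept their calls under every alternative that could check them. The array code block could not do so for AcP+AcPb controls, which share no code with CD25 controls. With only the groups compared in the fit, calls were lost for Cebpb in the AcP response (1.26), leaving 1 C/EBP probe set called, for Cebpd and Cebpb in the AcP+AcPb response (2.00 and 0.88), leaving 0, and for the response differences of Cebpd AcP+AcPb minus CD25 (2.15) and minus AcPb (2.00) and of Cebpb AcP minus CD25 (1.24) and AcPb minus AcP (-1.07), and among stimulated neurons for Cebpb AcPb minus CD25 (-0.57) and Cebpg AcP+AcPb minus CD25 (-0.20); fewer arrays leave fewer degrees of freedom. With the array code as a block, calls were lost for the AcP+AcPb response of Cebpd (1.40) and Cebpb (0.74), as within 1 code. They were also lost for the Cebpd response differences AcP+AcPb minus CD25 (1.56) and minus AcPb (1.40). For Cebpb in AcP+AcPb against CD25 controls the block leaves AcP+AcPb control 3 alone (-0.35) and cannot separate code from arm. The Cebpd difference AcP+AcPb minus AcPb was also lost after adding 4 (2.09), with array medians centred (2.05) and without the dim filter (2.00).

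With single arrays left out, that difference ranged from 1.78 to 2.30 and its highest adjusted p was 0.16. Cebpd AcP+AcPb minus CD25 ranged from 1.93 to 2.45 (0.063), Cebpb AcPb minus AcP from -1.20 to -0.97 (0.079), and Cebpb in AcP+AcPb against CD25 controls from -0.55 to -0.42 (0.091). The cause of these losses was not tested. With the replicate number as a block, 1 call changed, Cebpb in stimulated AcP+AcPb against CD25 neurons (0.38, limma adjusted p = 0.049, from 0.080), and no other. Only 3 arrays per group, and the dimness of Cebpa and of the second Cebpb and Cebpd probe sets, limit the precision.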

Other observations

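The remaining lists are given beside the share of all probe sets called, 0.404% in the AcP response, 0.256% in the AcP+AcPb response and 10.3% in AcP against CD25 controls. Of 16 immediate early genes 3 rose in AcP neurons, Ier3 by 2.26 ± 0.18, Egr2 by 2.21 ± 0.20 and Fos by 1.37 ± 0.17, and 2 in AcP+AcPb neurons. Of 11 interferon response genes 4 rose in AcP neurons, among them the chemokine Cxcl10, from 13.5 to 2512, and the GTPase Gbp2, from -1.85 to 347, and 3 in AcP+AcPb neurons. In AcP against CD25 controls 7 of these 11 were lower, with Cxcl10 at 13.5 against 199. Control levels of these were dim or below 0, so the size of their log2 change depends on the added constant. Of 15 glucocorticoid-inducible genes 1 rose in each of these arms, and 4 were lower in AcP than in CD25 controls, among them the metallothionein genes Mt2 (-0.52) and Mt1 (-0.41). Of 6 adipocyte and lipid genes tested none was called in the AcP response, and in AcP against CD25 controls Plin2 (-0.93) and Lpl (-0.31) were lower and the dim Cd36 (27.6 against 8.77) was higher. Of 12 ER stress genes none was called in the responses of AcP or AcP+AcPb neurons, and 1, Sesn2 (-0.28), was lower in AcP than in CD25 controls, a share below that of all probe sets.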
